A study of Homo sapiens with 6 samples.

Results

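The genes described here are 9 ATP-binding cassette (ABC) transporters that move drugs or lipids out of cells: ABCB1, ABCG2, the ABCC genes ABCC1 to ABCC5, ABCA1 and ABCG1. They were taken by symbol, and all 9 were found among the 39282 genes of the files. The members were selected on the counts and TPM of these same 6 libraries, ABCB1 and ABCA1 because both were higher after MEX3A depletion, so every value of hairpin against control is given as a description with no test. RNA sequencing covered 6 libraries of 2 human ovarian tumour lines, PA-1 from a teratocarcinoma and TOV21G from a clear cell carcinoma. In each line, lentivirus brought in hairpin 1 (sh-MEX3A#1, TRCN230492) or hairpin 2 (sh-MEX3A#2, TRCN230494) against MEX3A, which encodes an RNA-binding protein, or a scramble hairpin (sh-Ctrl) as the control. Each hairpin gave 1 library per line and each line had 1 control, so no library was repeated with the same reagent. All libraries, the controls included, came from cells infected with lentivirus, and the lines were grown in different media.

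ABC transporters bind and hydrolyse ATP to move substrates across membranes. ABCB1 (P-glycoprotein), ABCG2 and several ABCC proteins (the multidrug resistance proteins) pump anticancer drugs and their conjugates out of tumour cells, which is what the family is best known for in ovarian cancer. ABCA1 and ABCG1 instead hand cholesterol and phospholipid to apolipoproteins and lipoprotein particles, and their genes are classical targets of the oxysterol receptor LXR, which binds a direct repeat with 4 bases between its half-sites.

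Start regions are shown for ABCA1 and ABCB1, because these are the members with the largest hairpin differences in TOV21G and the ones chosen for being higher. Both sequences are from RefSeq (GRCh38.p14), run 5′ to 3′ on the minus strand and cover 250 bases before and 50 after the annotated start. Capitals mark motif matches on either strand. The ABCA1 window is chr9:104928106-104928405, and the ABCB1 window is chr7:87600835-87601134, the downstream one of 2 annotated starts.
ABCA1: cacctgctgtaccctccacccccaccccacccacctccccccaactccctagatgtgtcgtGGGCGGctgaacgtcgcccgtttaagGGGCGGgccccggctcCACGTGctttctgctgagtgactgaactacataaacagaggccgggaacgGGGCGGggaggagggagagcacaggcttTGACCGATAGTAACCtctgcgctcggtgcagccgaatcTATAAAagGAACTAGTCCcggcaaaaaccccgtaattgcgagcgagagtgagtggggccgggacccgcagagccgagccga
ABCB1: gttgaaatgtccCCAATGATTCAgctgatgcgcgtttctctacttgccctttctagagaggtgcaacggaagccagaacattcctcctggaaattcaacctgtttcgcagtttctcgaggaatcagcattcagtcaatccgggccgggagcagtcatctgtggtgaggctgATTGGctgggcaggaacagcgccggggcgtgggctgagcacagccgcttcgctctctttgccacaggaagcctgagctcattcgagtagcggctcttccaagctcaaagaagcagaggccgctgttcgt

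In the ABCA1 window the capitals are, in order, GC boxes (GGGCGG) from -189 and -163, an E box (CACGTG) from -147, a GC box from -97, a match to the LXR repeat on the other strand from -69 to -55, a TATA box (TATAAA) from -31 and a p53 half-site from -23, counted from the start. The repeat was searched as GGTNA, any 5 bases and GGTNA, and lay in 0.626% of 35116 windows of 300 bases around annotated starts. An E box lay in 7.26% of them, a GC box in 45%, a TATA box in 11.5% and a p53 half-site in 6.63%. In the ABCB1 window the capitals are a CCAAT box from -238, which overlaps by 1 base an AP-1 match (TGANTCA) from -234, and a CCAAT box on the other strand from -79 to -75. CCAAT lay in 34.6% of windows and the AP-1 letters in 7.71%. None of the 8 motifs searched, among them the antioxidant response element core TGACNNNGC (13.3% of windows), was in the upstream ABCB1 window (chr7:87713246-87713545), whose GC content was 37.7% against 55.3% downstream. Windows were listed for 6 of the 9 genes, with ABCC1, ABCC3 and ABCG1 missing from the table. Of the other genes with a window, ABCC5 held a GC box, a TATA box and a p53 half-site, ABCC2 held a TATA box, and ABCC4 held the antioxidant element core. One of the 5 ABCG2 windows held that core too, and 2 overlapping ones held GC boxes and an E box. A match of letters is a description of the sequence and shows no binding.

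MEX3A was at 41.2 and 54.9 CPM (counts scaled to the TMM-adjusted library total) with hairpins 1 and 2 in PA-1, against 137 CPM in the control. The TOV21G hairpins left it at 40.1 and 33.1 CPM, against 78.3 CPM. Libraries held 14654628 to 19495162 expected counts, and 3 counts, the limit that a count of 0 allows, came to 0.153 to 0.202 CPM. The labels call both lines ovarian surface epithelial cells. In PA-1 all 10 pluripotency markers were at 1 TPM or more in every library (TPM is the level per transcript length as the authors deposited it). In TOV21G 4 of these were, and 5 were listed at 0 in all libraries. Of 10 clear cell carcinoma markers, 6 reached 1 TPM in every PA-1 library and 7 in every TOV21G library. Of 10 epithelial and ovarian markers, 5 reached 1 TPM in every PA-1 library and 7 in every TOV21G library, and their sums were 450.62 to 678.17 TPM in PA-1 and 384.4 to 622.94 TPM in TOV21G. Among them KRT8 was at 212.76 to 310.13 TPM in PA-1, where KRT7 was listed at 0, and at 74.82 to 157.01 TPM in TOV21G. PAX8 was at or under 0.12 TPM in PA-1 and at 135.91 to 139.96 TPM in TOV21G, and MSLN was at 0.29 to 0.63 TPM in PA-1 and at 16.14 to 52.47 TPM in TOV21G, while MUC16 was at or under 0.12 TPM in both lines. Summed levels of 6 blood cell markers were 0.11 to 0.42 TPM over all libraries, with PTPRC, HBA1 and HBB listed at 0 in PA-1.

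The members were chosen by hairpin against control, not by the contrast between the 2 lines. The libraries are the same, however, and the choice was made with earlier results of these data known. By level per length, the ABCC genes made up 66.9% to 78.7% of the summed TPM of the 9 genes in PA-1 libraries and 96.8% to 99.9% in TOV21G libraries. ABCA1 made up 15.8% to 20.5% of the sum in PA-1 and 0.0826% to 1.63% in TOV21G. The sum itself was 106.73 to 126.21 TPM in PA-1 and 158.15 to 207.62 TPM in TOV21G.

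**Figure D1:**
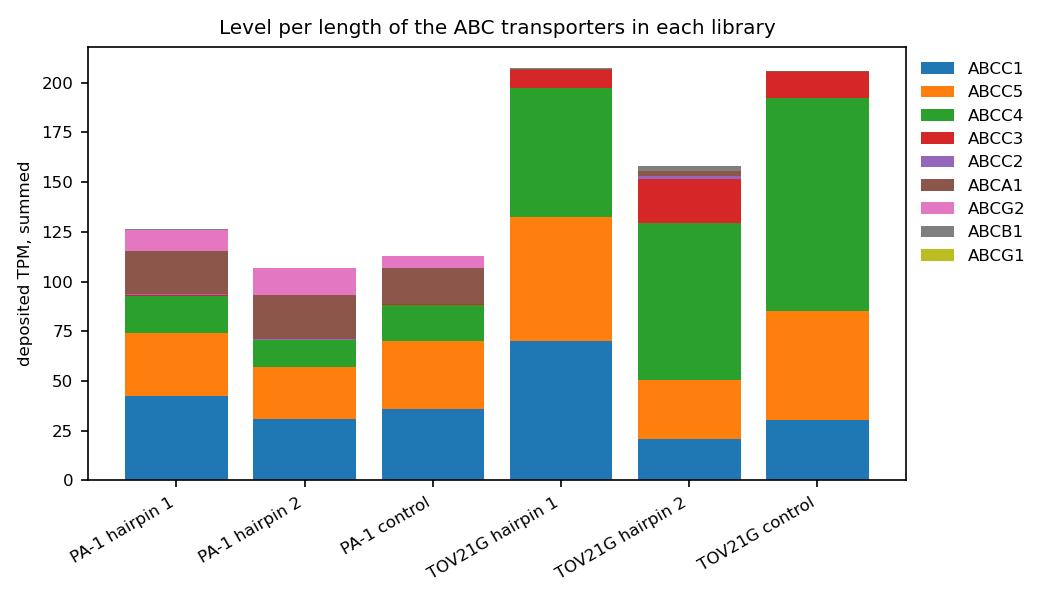
Stacked bars of deposited TPM for the 9 transporters, 1 bar per library, with PA-1 on the left and TOV21G on the right. ABCA1 and ABCG2 are visible in all PA-1 bars, while ABCC4 is the tallest segment in the TOV21G control at 107.16 TPM.

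In PA-1 the order of median TPM over the 3 libraries was ABCC1 (36.05), ABCC5 (31.46), ABCA1 (21.7), ABCC4 (18.18), ABCG2 (10.43), ABCC2 (0.57), ABCC3 (0.15), ABCB1 (0.09) and ABCG1 (0). Neighbours whose ranges overlapped were ABCC1 and ABCC5, ABCA1 and ABCC4, ABCC3 and ABCB1, and ABCB1 and ABCG1. In TOV21G the order was ABCC4 (79.16), ABCC5 (54.75), ABCC1 (30.53), ABCC3 (12.77), ABCA1 (0.47), ABCB1 (0.41), ABCC2 (0.37), ABCG1 (0.05) and ABCG2 (0). There the ranges overlapped between ABCC5 and ABCC1, ABCC1 and ABCC3, ABCA1 and ABCB1, ABCB1 and ABCC2, and ABCG1 and ABCG2. ABCG2, ahead of 4 members in PA-1, was thus last in TOV21G.

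Between the lines, edgeR's quasi-likelihood test on all 6 libraries called ABCA1 higher and ABCC4 lower in PA-1 among the 5 members that reached the cutoff of the low-count filter (0.632 CPM of the raw total) in libraries of both lines. Over all 16855 genes it called 20.6% higher and 20% lower at an adjusted p under 0.05. ABCG1 did not pass the filter. ABCG2 passed it only through PA-1, and ABCB1 and ABCC3 only through TOV21G. Passing thus already used the line where each of these 3 was higher, so their values are given as a description without a call. In bulk RNA, fewer cells of a type and less RNA per cell cannot be told apart.

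ABCG2, the breast cancer resistance protein, was at 14.7, 21 and 10.0 CPM in the PA-1 libraries with hairpin 1, hairpin 2 and the control. In TOV21G it had 0, 1 and 0 counts, so no PA-1 library came near any TOV21G library. Summed over each line, 815 counts in PA-1 and 1 in TOV21G give a ratio of 712 with a 95% counting interval of 127 to 28150. This interval pools the libraries of a line, leaves out the spread between them and is no test. ABCA1 had 95.6, 101 and 83.2 CPM in PA-1 against 2.18, 13.8 and 0.909 CPM in TOV21G, again without overlap, an order in which 30.8% of all genes stood. Its log2 fold change of PA-1 over TOV21G was 5.06 (SE 0.85, edgeR adjusted p = 0.00942).

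ABCC4, which exports cyclic nucleotides and prostaglandins, and ABCC3, which exports bile acids and glucuronides, were lower in PA-1. ABCC4 stood at 45.1, 35.0 and 46.6 CPM in PA-1 and at 165, 226 and 304 CPM in TOV21G (log2 fold change -2.50, SE 0.24, edgeR adjusted p = 0.00205). ABCC3 had 6, 4 and 10 counts in PA-1 libraries and 251, 519 and 381 counts in TOV21G libraries. Summed over each line, the ratio of PA-1 to TOV21G was 0.0152 for ABCC3 (counting interval 0.00924 to 0.0236, which leaves out the spread between libraries). Both genes were lower in every PA-1 library than in any TOV21G library, as were 29.4% of all genes.

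ABCC5, ABCC1 and ABCC2 did not pass between the lines. ABCC5, which also carries cyclic nucleotides, lay lower in all PA-1 libraries (74.0, 62.7 and 86.3 CPM) than in TOV21G (167, 88.4 and 152 CPM), with a log2 fold change of -0.86 (SE 0.30, edgeR adjusted p = 0.0754). ABCB1 had 12 counts in all of PA-1 and 114 in TOV21G, and its ranges overlapped. DESeq2 called ABCC5 lower in PA-1 (adjusted p = 0.0324), where it called 19.6% of all genes lower. With edgeR, ABCC5 did not pass between the controls alone (adjusted p = 0.312) or the knockdown groups alone (0.103). Its log2 fold change was -0.60 without TOV21G hairpin 1 and -1.06 without TOV21G hairpin 2. Without PA-1 hairpin 1 or hairpin 2 it was -0.92 or -0.80. Each of these runs leaves 1 library in a knockdown group, so only fold changes are given for them. Between the 2 controls alone, edgeR called 7.29% of all genes higher and 7.59% lower in PA-1, with ABCA1 among the higher and ABCC4 among the lower. ABCC1 and ABCC2 had log2 fold changes of -0.14 (SE 0.45) and -0.33 (SE 0.75), with overlapping libraries. An approximate interval of 1 SE on either side includes 0 for both, which does not show that their levels are alike.

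**Figure D2:**
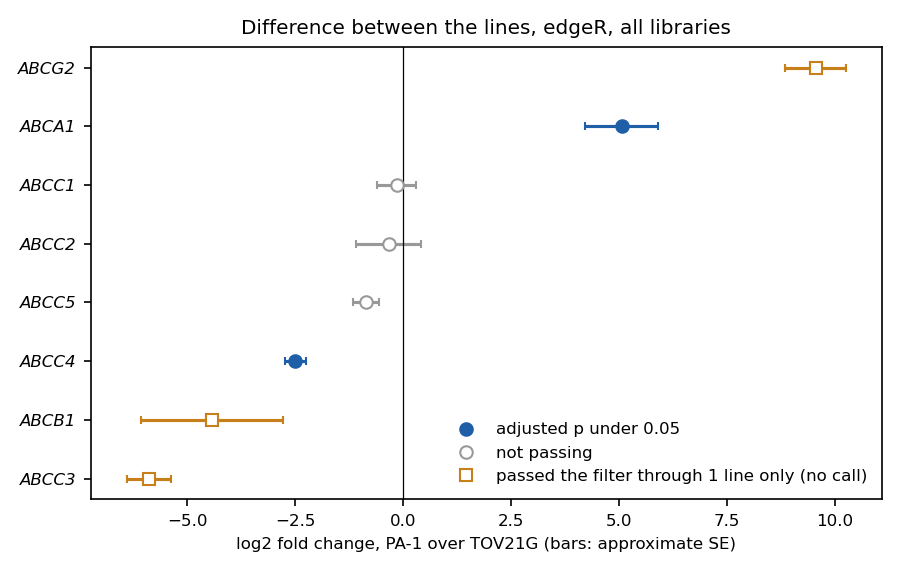
Log2 fold change of PA-1 over TOV21G for the 8 tested members, with approximate SE bars; filled circles have an edgeR adjusted p under 0.05, open circles do not, and squares mark the 3 genes that passed the filter through 1 line only and carry no call. ABCA1 (5.06) lies to the right and ABCC4 (-2.50) to the left; the fitted ABCG2 value depends on the prior count, since TOV21G held 1 count.

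The RSEM length of a gene, an abundance-weighted mean over its transcripts, also differed by line for ABCC3. It was 5693 bases in all 3 PA-1 libraries (4 to 10 counts each) and 4265, 3256 and 3993 bases in the TOV21G libraries with hairpin 1, hairpin 2 and the control. A shorter length raises TPM for the same count. ABCC2 was at 4346 bases with hairpin 2 in TOV21G and at 5806 to 6187 bases in the other 5 libraries, while ABCC4 stayed between 5683 and 5833 bases throughout. For ABCB1 the value was 5205 bases in 4 of the libraries with counts and 5257 bases with hairpin 2 in TOV21G, and the files give no counts per transcript or start.

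Against the control, the drug pump ABCB1 and the cholesterol exporter ABCA1 were higher with both hairpins in each line, which is how they were chosen. At least 2-fold higher with both hairpins (on log2 CPM with a prior count of 2) was 1 of 8 tested members in PA-1, ABCB1, where 3.36% of all genes were. In TOV21G there were 2 of 8, ABCB1 and ABCA1, where 4.26% of all genes were. None was 2-fold lower with both hairpins in either line, where 0.682% of all genes in PA-1 and 3.36% in TOV21G were. Since the choice used this contrast and both hairpins of a line share 1 control, nothing is read from these counts. With 1 hairpin at a time in PA-1, 2 of 8 were 2-fold higher with hairpin 1 (5.59% of all genes) and 0 lower (2.19%), and 2 were higher with hairpin 2 (6.95%) and 1 lower (2.48%).

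**Figure D3:**
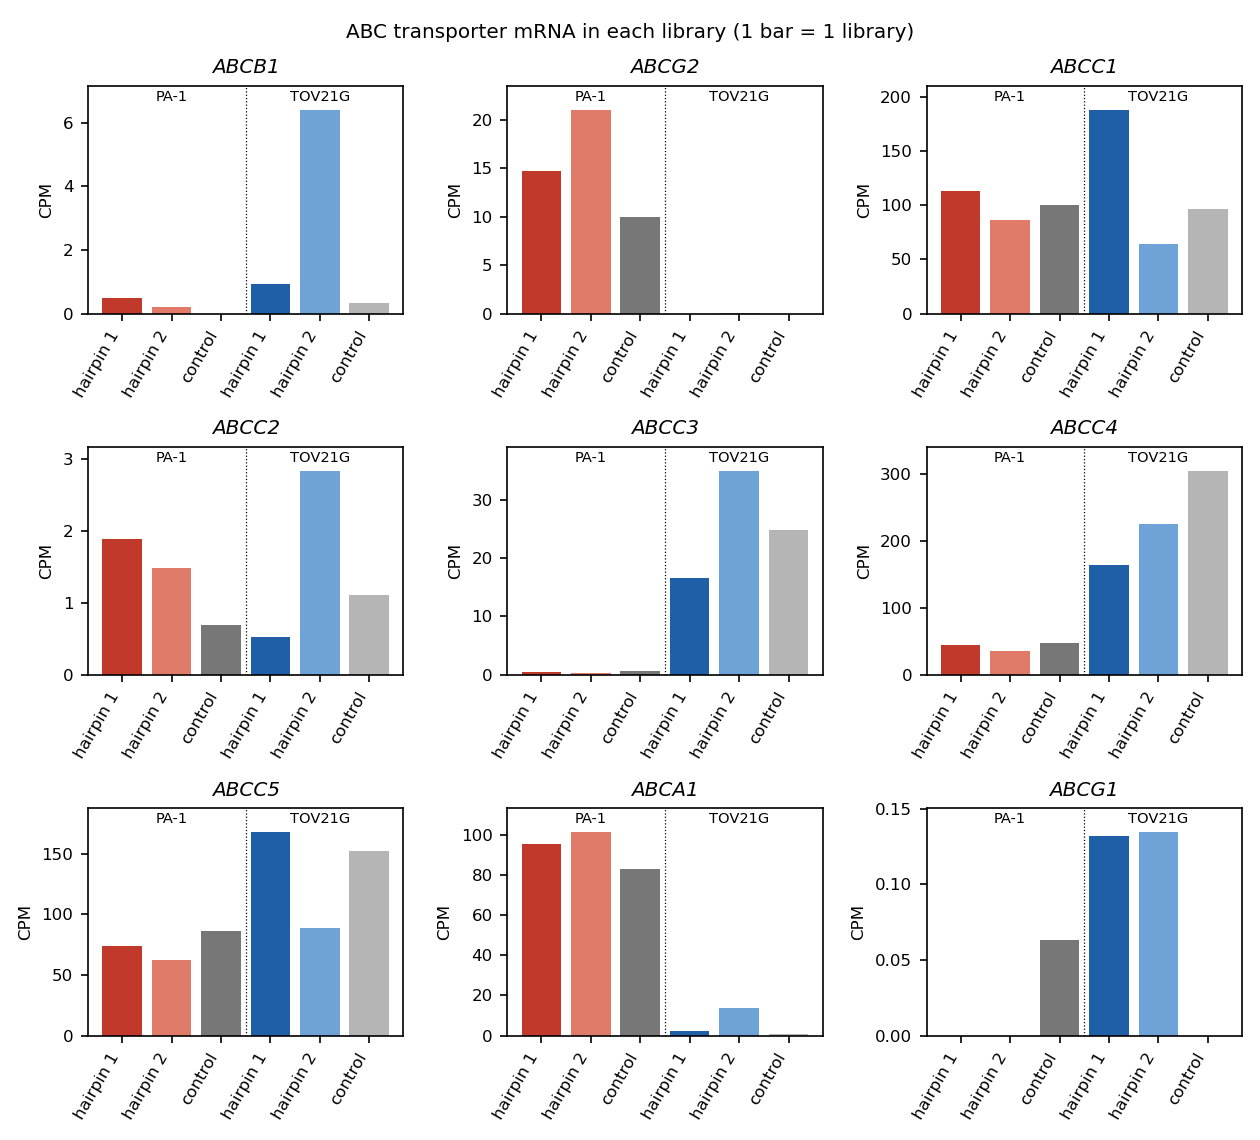
CPM of each transporter in each library, 1 panel per gene with its own axis from 0; red and pink bars are PA-1 hairpins 1 and 2, dark and light blue bars TOV21G hairpins 1 and 2, and grey bars the controls. The tallest ABCB1 bar, 6.38 CPM, is TOV21G with hairpin 2, and ABCG1 never exceeds 0.134 CPM.

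ABCB1 was a low transcript in every library. In PA-1 it had 8 and 4 counts with hairpins 1 and 2 (0.485 and 0.203 CPM), against 0 in the control. Relative to the 3 counts that a control count of 0 allows, the level was at least 2.57-fold higher with hairpin 1 and at least 1.08-fold higher with hairpin 2, before counting error in the hairpin counts. Exact 95% intervals of the ratio begin at 1.65 for hairpin 1 and at 0.533 for hairpin 2, so the hairpin 2 interval includes no difference. In TOV21G it had 14 and 95 counts with the hairpins (0.923 and 6.38 CPM), against 5 in the control (0.325 CPM). The ratio to control was 2.84 with hairpin 1 (95% counting interval 0.967 to 10.1) and 19.7 with hairpin 2 (8.13 to 61.9). All 4 hairpin libraries were above 3 counts, and 1 of them held most of the reads. Because ABCB1 was chosen for being higher, these intervals describe counting error and are no test.

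ABCA1 was among the more abundant members in PA-1 and a low transcript in TOV21G. In PA-1 it was at 95.6 and 101 CPM with hairpins 1 and 2, against 83.2 CPM in the control, ratios of 1.15 (1.07 to 1.24) and 1.22 (1.13 to 1.31). In TOV21G libraries the hairpin values were 2.18 and 13.8 CPM, against 0.909 CPM (33, 206 and 14 counts), ratios of 2.39 (1.25 to 4.84) and 15.2 (8.87 to 28.3). The highest TOV21G library was thus still far below the lowest PA-1 library. Whether the effect differed between the lines was not tested, because the choice of ABCA1 used both effects. For the same reason its intervals describe counting error and are no test.

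ABCG1, the partner of ABCA1 in cholesterol export to lipoprotein particles and a fellow LXR target, was at or under 2 counts in all 6 libraries. It had 0 and 0 counts with the PA-1 hairpins against 1 in the control, and 2 and 2 with the TOV21G hairpins against 0. All of these are within the 3 counts that a count of 0 allows, so no difference was detectable at this depth.

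ABCG2 could be followed in PA-1 only, where the hairpin libraries had 14.7 and 21 CPM and the control 10.0 CPM (ratios 1.47, interval 1.2 to 1.81, and 2.10, interval 1.74 to 2.54). In TOV21G its counts were 0 and 1 with the hairpins and 0 in the control. ABCC2, an apical pump for glucuronide and glutathione conjugates, was higher with both PA-1 hairpins (31 and 29 counts against 11). In TOV21G it was lower with hairpin 1 (8 counts) and higher with hairpin 2 (42 counts) than in the control (17 counts).

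ABCC1, which exports glutathione conjugates and leukotriene C4, lay on either side of the control in both lines. In PA-1 the ratios to control were 1.13 (1.06 to 1.21) with hairpin 1 and 0.861 (0.804 to 0.923) with hairpin 2. In TOV21G it was at 187 and 64.2 CPM with hairpins 1 and 2 against 96.1 CPM in the control, ratios of 1.95 (1.83 to 2.08) and 0.669 (0.616 to 0.726). The hairpins differed from each other more than either did from the control.

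ABCC5 was at 74.0 and 62.7 CPM with the PA-1 hairpins against 86.3 CPM, and at 167 and 88.4 CPM with the TOV21G hairpins against 152 CPM. ABCC3 in TOV21G was at 16.6 and 34.9 CPM with hairpins 1 and 2 against 24.7 CPM, the opposite order of hairpins from ABCC1 and ABCC5. ABCC3 in PA-1, at 6 and 4 counts against 10, had intervals of the ratio that include 1. ABCC4 was lower with both hairpins in TOV21G, at 165 and 226 CPM against 304 CPM, and at 45.1 and 35.0 CPM against 46.6 CPM in PA-1.

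**Figure D4:**
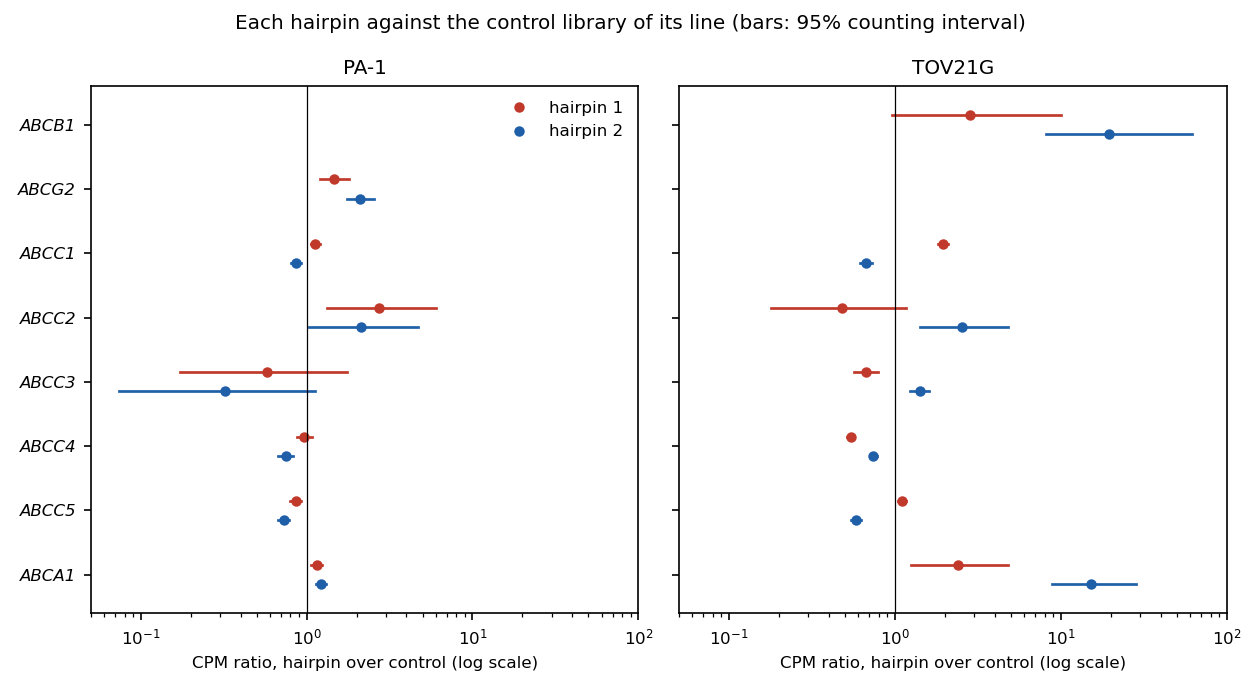
Ratio of CPM with each hairpin to the control of the same line on a log axis, with 95% counting intervals; red is hairpin 1 and blue hairpin 2. Points are missing where the control had 0 counts (ABCB1 in PA-1, ABCG2 in TOV21G), and ABCG1 is left out. The blue ABCB1 and ABCA1 points in TOV21G stand at 19.7 and 15.2, and the red and blue ABCC1 points fall on opposite sides of 1 in both panels.

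Counted without a size limit, 4 of 8 tested members were higher (33.8% of all genes) and 3 lower (34%) with both hairpins in PA-1, and 1 was on either side of the control (29.2%). Of the 3 lower ones, ABCC4 had a log2 difference of -0.05 with hairpin 1, which was 0.01 without the TMM factor and 0.05 on log2(TPM + 0.5), so its side of the control there depends on the scaling. In TOV21G 2 were higher with both (31.3%) and 1 was lower (31.9%), while ABCC1, ABCC2, ABCC3 and ABCC5 were on either side (32.6%). The median log2 difference of the 8 genes was 0.19 and 0.03 with PA-1 hairpins 1 and 2, and 0.07 and 0.56 with TOV21G hairpins 1 and 2, beside medians of 0 over all genes.

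The TOV21G library with hairpin 2 held the highest value of its line for ABCB1, ABCA1, ABCC2 and ABCC3 and the lowest for ABCC1 and ABCC5. Set against hairpin 1, hairpin 2 was at 6.91 times the level for ABCB1 (3.92 to 13.1), 6.36 times for ABCA1 (4.39 to 9.49), 5.35 times for ABCC2 (2.48 to 13.2) and 0.343 times for ABCC1 (0.318 to 0.369). In PA-1 the same ratio was 0.419 for ABCB1 (0.0924 to 1.56), 1.06 for ABCA1 (0.991 to 1.13), 0.784 for ABCC2 (0.456 to 1.34) and 0.762 for ABCC1 (0.713 to 0.815). These intervals cover counting error only, and 1 library stands for each hairpin.

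In that TOV21G library, 3 of the 8 members exceeded the control at least 2-fold, as did 12.4% of all genes, and 10.7% of genes lay 2-fold below it. With hairpin 1 the shares were 8.71% and 7.87%, and 2 members exceeded the control. The nuclear RNA MALAT1 stood at 9429 and 18455 CPM with TOV21G hairpins 1 and 2, against 4315 CPM in the control, and NEAT1 at 1133 and 1068 CPM, against 361 CPM. In PA-1 MALAT1 stood at 1303 and 1113 CPM with hairpins 1 and 2, against 910 CPM in the control, and NEAT1 at 270 and 273 CPM, against 119 CPM. Of 6 fibroblast markers, 2 were at 1 TPM or more in every TOV21G library, and all 6 summed to 43.95 and 68.67 TPM with the hairpins, against 5.43 TPM. In PA-1 the same sum was 86.23 and 60.2 TPM with the hairpins, against 48.32 TPM. In TOV21G COL1A1 alone was 40.47 and 63.55 TPM, against 3.1 TPM, whereas COL3A1 was at or under 0.02 TPM. The part of these in the transporter values of either line was not tested.

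The library kit marked the strand, per the labels, but the strand setting of the counting is not given in the sources used here, so reads of overlapping genes may not be separated. RefSeq places ABCB1 on chromosome 7 at 87503017 to 87713295 and ABCA1 on chromosome 9 at 104781006 to 104928155 (GRCh38.p14). RUNDC3B on the opposite strand overlaps the upstream part of ABCB1 and had 0 to 2 counts in any library. ABCB4, a close paralog on the other side that exports phosphatidylcholine into bile, had 1.11 and 19.32 expected counts with TOV21G hairpins 1 and 2, against 1.1 in the control. In PA-1 it had 6.67 and 8 with the hairpins, against 2. All 54 expected counts of the 9 members were whole at the 2 decimals of the files. Beyond RUNDC3B lies SLC25A40, whose PA-1 levels were 34.0 CPM (hairpin 1), 39.1 CPM (hairpin 2) and 30.6 CPM (control). Its TOV21G levels, in the same order, were 21.3, 18.4 and 32.7 CPM.

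NIPSNAP3B, which overlaps the end of ABCA1 on the opposite strand, had 22 and 5 counts with TOV21G hairpins 1 and 2, against 5 in the control. In PA-1 it had 30 and 29 with the hairpins, against 22. Its order of libraries in TOV21G was not that of ABCA1. NIPSNAP3A is the nearest gene on that side. Its TOV21G levels were 23.0 CPM (hairpin 1), 37.1 CPM (hairpin 2) and 40.1 CPM (control). In PA-1 it lay slightly below the control, whose level was 20.1 CPM, in the hairpin 1 (19.5 CPM) and hairpin 2 (19.3 CPM) libraries. CT70 on the other side of ABCA1 had 0 to 2 counts.

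Genes with the most similar profile over the 6 libraries were ranked by the root mean square distance between log2 CPM values, each centred on its own mean, among 11556 genes with a mean of at least 5 CPM. The 5 nearest to ABCA1 were SVEP1 (distance 0.30), the endothelial cadherin CDH5 (0.45), NUDT11 (0.47), the arginine synthesis enzyme ASS1 (0.49) and the hypoxia factor HIF3A (0.53). SVEP1 was at 12.0 and 18.0 CPM with the PA-1 hairpins against 9.25 CPM, and at 0.264 and 1.28 CPM with the TOV21G hairpins against 0. For ABCB1 the nearest were the metallothionein MT2A (0.68), TRNP1 (0.68), SLC41A2 (0.69), the carboxypeptidase CPA4 (0.69) and the follistatin-like FSTL3 (0.69). MT2A stood at 17.8 and 21 CPM with the PA-1 hairpins against 8.94 CPM, and at 112 and 459 CPM with the TOV21G hairpins against 57.7 CPM. Since the 5 were picked for a profile close to that of the member, a shared peak or order comes from the choice and is no result. ABCB1 and the 5 genes nearest to it all had their highest value in the TOV21G library with hairpin 2. ABCA1 and its 5 were higher in every PA-1 library than in any TOV21G library, as were 30.8% of all genes.

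**Figure D5:**
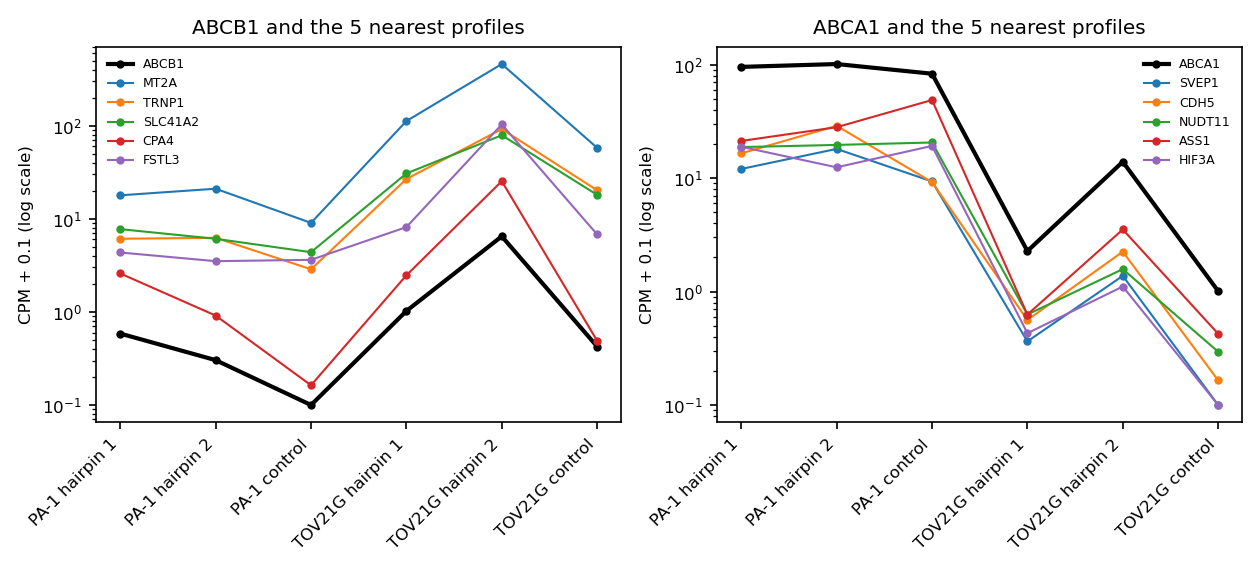
CPM plus 0.1 on a log axis in the 6 libraries for ABCB1 (left, black) and ABCA1 (right, black) with the 5 genes of nearest profile. In the left panel all lines peak at TOV21G hairpin 2, and in the right panel all lines drop between PA-1 and TOV21G. The genes were picked for this likeness.

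Genes related to the transporters were taken as 6 lists, and for these the knockdown was tested against control with edgeR over all genes. It called 0 genes in any list or line (0% of 16855 genes in PA-1 and in TOV21G), with 434 genes at an unadjusted p under 0.05 in PA-1 and 1612 in TOV21G. Without the TOV21G library of hairpin 1, it called 4 listed genes higher (4.12% of all genes) and 13 lower (4.81%) in TOV21G, where 1 hairpin library then stood against 1 control and the PA-1 hairpins gave the spread. Of the genes to which DESeq2 gave an adjusted p (15547 in PA-1 and 11953 in TOV21G), it called 0.219% higher and 0.0129% lower in PA-1, and 0.786% higher and 1.1% lower in TOV21G. Median log2 fold changes of the lists are to be read beside 0 in PA-1 and 0.02 in TOV21G over all genes.

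Among 25 measured other ABC family genes, the median was -0.03 in PA-1 and -0.05 in TOV21G, and DESeq2 called none in either line. At an unadjusted p under 0.05 there was 1 in each line, TAP1 in PA-1 and the mitochondrial ABCB8 in TOV21G. TAP1, a subunit of the peptide pump for antigen presentation, was at 6.86 and 12.5 CPM with the PA-1 hairpins against 2.71 CPM, and at 66.3 and 135 CPM with the TOV21G hairpins against 54.5 CPM. ABCB8 was at 18.6 and 14.4 CPM with the TOV21G hairpins against 30.9 CPM. ABCC10 stood at 17.8 and 24.1 CPM with the PA-1 hairpins against 15.5 CPM, and at 38.8 and 42.1 CPM with the TOV21G hairpins against 28.1 CPM.

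Of 15 measured genes of the LXR list, 4 were higher and 11 lower with both hairpins in PA-1 (median -0.28), where 33.8% of all genes were higher and 34% lower. In TOV21G 4 were higher and 8 lower (median -0.16), where 31.3% and 31.9% of all genes were, and the list was not tested as a set. The receptor gene NR1H3 was at 3.88 and 4.27 CPM with the PA-1 hairpins against 5.85 CPM, and at 3.23 and 2.82 CPM with the TOV21G hairpins against 4.68 CPM. MYLIP, which degrades the LDL receptor, was at 27.4 and 31.3 CPM with the PA-1 hairpins against 35.4 CPM, and at 56.7 and 30.5 CPM in TOV21G against 80.9 CPM. The phosphodiesterase SMPDL3A was at 0.364 and 0.865 CPM with the PA-1 hairpins, against 0 counts in the control, and at 1.98 and 2.89 CPM with the TOV21G hairpins against 0.520 CPM. DESeq2 called none of the list, and 2 genes in PA-1 and 0 in TOV21G had an unadjusted p under 0.05 in edgeR.

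Of 25 sterol uptake, storage and transport genes, DESeq2 called caveolin CAV1 higher in PA-1, where the hairpin libraries were at 37.9 and 31.9 CPM against 10.6 CPM (adjusted p = 0.00371). In TOV21G it called the cholesteryl ester hydrolase NCEH1 higher, at 188 and 337 CPM against 47.3 CPM (adjusted p = 6.96e-05), and the sterol hydroxylase CYP27A1 lower, at 3.69 and 7.73 CPM against 30.5 CPM (adjusted p = 0.0143). CYP27A1 is named because DESeq2 called it, a choice made after its values were seen. In edgeR none of them passed, with a log2 difference of 1.72 (SE 0.28) for CAV1, 2.47 (SE 0.46) for NCEH1 and -2.41 (SE 0.47) for CYP27A1. GRAMD1C was at 2.37 and 1.07 CPM with the TOV21G hairpins against 9.03 CPM, and OSBPL6 at 2.44 and 3.22 CPM against 5.98 CPM. The list medians were -0.01 in PA-1 and 0.07 in TOV21G, with 3 and 5 genes at an unadjusted p under 0.05.

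The nuclear receptors that induce ABCB1 in liver, NR1I2 (PXR) and NR1I3 (CAR), had 0 counts in all 6 libraries. Of 23 measured xenobiotic receptors and drug-metabolising enzymes, DESeq2 called only the quinone reductase NQO1, lower in TOV21G at 272 and 187 CPM against 683 CPM (adjusted p = 0.00940). In edgeR, 1 gene in PA-1 and 5 in TOV21G had an unadjusted p under 0.05. MGST1 was at 25.9 and 21.6 CPM with the TOV21G hairpins against 40.9 CPM, GSTO1 at 50.3 and 51.5 CPM with the PA-1 hairpins against 33.1 CPM, and GSTM3 had log2 fold changes of -0.49 (SE 0.35) in PA-1 and -0.68 (SE 0.33) in TOV21G. The list medians were -0.02 and -0.06.

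Among 19 other drug carriers, with medians of 0.11 in PA-1 and -0.24 in TOV21G, DESeq2 called none, and 1 gene in PA-1 and 2 in TOV21G had an unadjusted p under 0.05. The vault protein gene MVP was at 6.67 and 6.92 CPM with the PA-1 hairpins against 3.21 CPM, and at 184 and 175 CPM with the TOV21G hairpins against 130 CPM. The nucleoside carriers SLC29A2 (9.36 and 3.96 CPM with the TOV21G hairpins against 19.2 CPM) and SLC29A1 (101 and 107 CPM with the PA-1 hairpins against 151 CPM) did not pass, nor did the cation carrier SLC22A3.

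Of 29 measured transcription regulators reported for ABCB1, the medians were -0.01 in PA-1 and -0.08 in TOV21G, DESeq2 called none, and in each line 1 gene was under 0.05 before adjustment. JUN was at 56.4 and 98.3 CPM with the PA-1 hairpins against 26.4 CPM, and at 62.8 and 107 CPM with the TOV21G hairpins against 50.5 CPM. ETS1 was at 38.8 and 104 CPM with the PA-1 hairpins against 25.7 CPM, and DNMT1, the maintenance DNA methyltransferase, at 108 and 71.2 CPM with the TOV21G hairpins against 180 CPM. NFKB1 had log2 fold changes of 0.41 (SE 0.28) in PA-1 and 0.31 (SE 0.28) in TOV21G.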

How the data were processed

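Per the file headers, the authors deposited 1 RSEM gene table per library with expected counts, TPM, FPKM (not used here) and transcript lengths. Per the submitters' processing notes, cutadapt 1.12, STAR 2.5.3a, RSEM 1.2.31 and edgeR 3.26.8 were used with hg38. RSEM shares reads among similar genes, so members with close paralogs are less certain. For edgeR, the authors' deposited expected counts were rounded to integers here, using edgeR 4.0.16 in R 4.3.3. TMM scaling and filterByExpr on the 4 groups kept 16855 genes. The quasi-likelihood fit had 1 mean per group and 2 residual degrees of freedom, which come from the 2 hairpins of each line. Each control was assumed to vary as they did. The labels do not say that libraries came from separate cultures, so p-values measure the spread between these libraries only. Adjustment was by Benjamini and Hochberg over all genes at 0.05. Each SE was taken as |log2 fold change| over the root of F, an approximation. The line contrast was the mean of the knockdown and control groups of PA-1 minus that of TOV21G. Counting intervals are exact binomial at 95%, which, like the limits for a count of 0, leave out all but counting error, as the labels describe no molecular identifiers. DESeq2 1.42.0 was an alternative. Members and lists were chosen with earlier results of these data known. The genes named are all members, MEX3A, up to 4 genes per list with the smallest p in the mean of both knockdown contrasts, the 5 nearest profiles and the neighbouring genes; some of these are not reported here. The fits were tested on simulated data.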

Additional observations from a re-analysis of the deposited data

How the results depend on the processing

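Of the line differences, ABCA1 and ABCC4 kept their direction under every alternative run. These were DESeq2, its size factors, no filter, the hairpin number as a block, each hairpin library left out, controls alone and knockdown groups alone. In the runs that left out no library, both kept an adjusted p under 0.05 in edgeR and in DESeq2. ABCG2 and ABCC3 kept their direction too, but they passed the low-count filter through 1 line only, so they carry no call. Among the 5 members that reached the cutoff in both lines, edgeR called ABCC4 lower in PA-1, as it did 20% of all genes. ABCC5 was also called lower with DESeq2 (19.6% of all genes) and with hairpin number as a replicate block, where 4067 genes were. It did not pass in edgeR with the size factors of DESeq2 (adjusted p = 0.0767) or with no filter (0.0719). For the runs that left out 1 library, only the ABCC5 fold changes are given, whether or not it passed. The log2 fold change of ABCC1 turned to 0.34 without TOV21G hairpin 1 (leaving out 1 library gave -0.44 to 0.34) and to 0.054 between controls alone. That of ABCC2 turned to 0.49 without TOV21G hairpin 2 (-0.72 to 0.49) and to 0.0021 between the knockdown groups. Over all genes, 3471 were higher and 3366 lower in PA-1. These counts were 1228 and 1280 between controls alone, and with 1 hairpin library left out 1880 to 5079 higher and 1970 to 4867 lower.

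Same-numbered hairpins deviated together (r = 0.24 across genes), but the number names the reagent only. Among listed genes, the replicate block called 1 higher and 1 lower in TOV21G, DESeq2 1 higher in PA-1 and 1 higher and 2 lower in TOV21G, and leaving out TOV21G hairpin 1 called 4 higher and 13 lower in TOV21G, against 0 in the fit reported. Members 2-fold higher with both hairpins in PA-1 numbered 1, beside 566 of all genes, and 2 with a prior count of 0.5, beside 807 of all genes. With either hairpin alone 2 members were higher (5.59% of all genes for hairpin 1 and 6.95% for hairpin 2). With hairpin 2 alone 1 member was 2-fold lower (2.48%). The counts for 1 hairpin alone were chosen after seeing the data. With log2(TPM + 0.5) the members 2-fold higher with both hairpins numbered 0 in both PA-1 and TOV21G, since 0.5 TPM exceeds most ABCB1 values. It also exceeds ABCA1 in TOV21G with hairpin 1 (0.47 TPM) and in the control (0.17 TPM). All genes 2-fold lower with both hairpins numbered 115 in PA-1, 181 with a prior count of 0.5 and 397 with no filter, and 567 in TOV21G, 932 with no filter. Leaving out a control was not possible, as each line has 1. ABCB1, ABCG1, ABCC2 and ABCC3 had 31 or fewer counts in each PA-1 library, which widens the counting intervals of their ratios there.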
